A study of Mus musculus with 4 samples.

Results

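Of the 19805 tiled 60-base probes on the arrays, 167 stood in the top 10% of the nascent over genomic ratio on each of 4 hybridisations, which is 0.843% of the probes. The members were selected on these measured ratios, so their ratios are given as a description and support nothing by themselves. All samples came from untreated, asynchronous cells of PGK12.1, a female mouse embryonic stem (ES) cell line that the labels describe as pluripotent. Short nascent strands left after digestion with λ-exonuclease were hybridised in 2 size fractions, 300-800 nt and 100-600 nt, on 2 arrays each. Total genomic DNA of the same cells was the other channel on every array. The line is a single cell line, and its identity cannot be checked against marker genes on arrays that measure DNA.

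DNA replication starts at replication origins (ORIs), where a short RNA primer is laid down and the new strand grows outwards. The RNA at the 5′ end protects young strands from λ-exonuclease, while broken genomic DNA of the same size is digested, so short strands that survive are richest close to the sites where synthesis began. CpG islands are stretches of unmethylated DNA rich in C, G and the CpG dinucleotide that cover many promoters of housekeeping and developmental genes, and many mammalian ORIs lie at them. On a tiled array a site of initiation is therefore read as a high nascent over genomic ratio over neighbouring probes.

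The sequences below show what the members looked like. They are the 6 members whose lowest percentile over the 4 arrays was highest, 2 of those with the most C and G, the 2 with the least, and the 4 members of the fragment that held most of them. Each is named by its fragment number and its offset in bases within that fragment, as in the deposited probe names. All are written 5′ to 3′ as deposited, and capitals mark CpG dinucleotides.
106197-30: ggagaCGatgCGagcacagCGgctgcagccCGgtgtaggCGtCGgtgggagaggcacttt
66836-670: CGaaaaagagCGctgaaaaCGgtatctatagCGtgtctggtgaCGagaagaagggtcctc
66347-880: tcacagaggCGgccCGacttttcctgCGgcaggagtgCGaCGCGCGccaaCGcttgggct
108091-870: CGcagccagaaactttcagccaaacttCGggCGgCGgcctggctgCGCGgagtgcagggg
105456-190: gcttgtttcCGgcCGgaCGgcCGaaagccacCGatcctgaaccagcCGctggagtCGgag
42523-10: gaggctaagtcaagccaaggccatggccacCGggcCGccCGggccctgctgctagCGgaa
44761-410: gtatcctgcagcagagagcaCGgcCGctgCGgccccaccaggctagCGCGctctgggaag
66650-90: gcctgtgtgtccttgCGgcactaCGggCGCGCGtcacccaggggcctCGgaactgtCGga
44543-200: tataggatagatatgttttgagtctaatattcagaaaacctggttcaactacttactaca
105371-1870: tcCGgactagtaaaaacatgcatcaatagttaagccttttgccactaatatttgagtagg
43419-860: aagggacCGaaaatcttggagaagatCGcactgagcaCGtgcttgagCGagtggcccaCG
43419-1730: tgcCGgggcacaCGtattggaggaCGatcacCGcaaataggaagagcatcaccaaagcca
43419-1897: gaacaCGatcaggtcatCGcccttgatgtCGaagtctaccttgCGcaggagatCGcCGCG
43419-2210: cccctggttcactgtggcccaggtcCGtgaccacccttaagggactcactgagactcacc
The first 6 hold between 4 and 8 CpG dinucleotides in 60 bases. The probe with the lowest C+G content, 44543-200, holds none.

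A probe's log2 ratio was centred on the median probe of its array, so a value of 0 is the level of the median probe. A probe entered the top 10% at 1.03 and 1.04 on the 2 arrays of 300-800 nt strands and at 0.47 and 0.66 on the 2 arrays of 100-600 nt strands. The top 10% was shared by 1822 probes between the arrays of 300-800 nt strands and by 663 probes between those of 100-600 nt strands. The members made up 9.17% of the former and 25.2% of the latter. Their median log2 ratio was 1.47 and 1.49 with 300-800 nt strands and 0.70 and 0.95 with 100-600 nt strands. Their highest values were 3.27, 3.43, 2.31 and 2.04 on the same arrays. The weakest of a member's 4 ranks fell on each array about as often, for 36 and 46 members on the arrays of 300-800 nt strands and for 44 and 41 on those of 100-600 nt strands. Without the first or the second array of 100-600 nt strands, 360 and 264 probes passed the rule on the remaining 3 arrays.

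**Figure D1:**
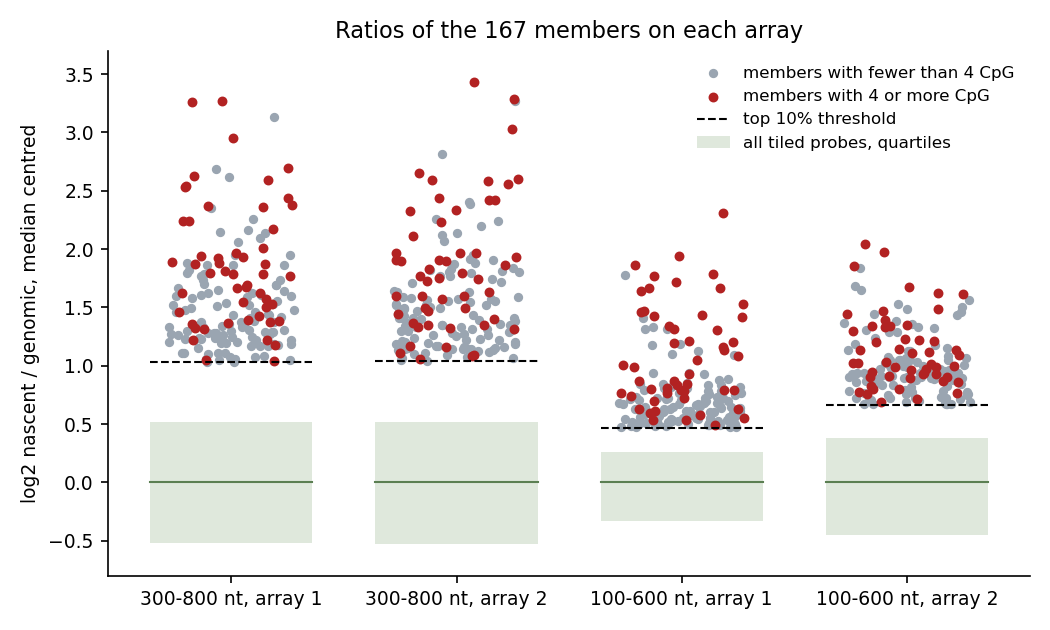
Log2 nascent over genomic ratio (y axis, centred on each array's median probe) of the 167 members on the 4 arrays (x axis). Red points are members with 4 or more CpG, grey points the other members, dashed lines the top 10% thresholds, and green bars the quartiles and median of all 19805 tiled probes. The highest value on every array is a red point, and grey points stand among the high values too.

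The 2 arrays of 300-800 nt strands lie on 1 slide, correlated at 0.989 over all 19805 probes and differed by an SD of 0.0889 on the log2 scale, less than the 0.101 predicted from their repeated spots, so they were counted as 1 sample although the series describes them as biological replicates. The 2 arrays of 100-600 nt strands correlated at 0.551 and differed by an SD of 0.408. Between the fractions the correlation over all probes ranged from 0.213 to 0.415. These correlations are descriptions over probes, which share the genomic DNA and their base composition. The fractions differed also in dye, print design and software version, so fraction and these technical differences cannot be told apart. Repeated spots were all above the threshold for 157 and 156 of the 167 members on the arrays of 300-800 nt strands. Most members had 1 spot on the arrays of 100-600 nt strands, where 5 members had several. All 167 were well above background in both channels on all 4 arrays, as nearly all spots were. The share of all tiled spots was 99.94% and 99.96% with 300-800 nt strands and 99.92% and 100% with 100-600 nt strands. The software marked a spot of 58 members (34.7%) as saturated, uneven or an outlier on at least 1 array, against 23.6% of all probes.

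The 10 members with the highest weakest rank stood at or above the 98.7th percentile on every array, and 9 of them are listed by the study at a promoter. The study drew that list from the arrays of 300-800 nt strands used here, and marked in it a subset also found with 100-600 nt strands. The list therefore names the location and is no independent evidence of enrichment. The highest was 106197-30, listed at the promoter of Lix1, with log2 ratios of 2.95 and 3.03 in 300-800 nt strands and 1.77 and 1.45 in 100-600 nt strands. It matched the RefSeq promoter window of Gm52628 at chr3:96601184-96601243 (GRCm38.p6, plus strand), with its middle 114 bases upstream of that gene's start. Probe 108091-870 covered the start of Notch2, a receptor that releases a transcription factor domain when a neighbouring cell's ligand binds, at chr3:98013520-98013579. Its log2 ratios were 2.44 and 2.42 in 300-800 nt strands and 1.87 and 1.85 in 100-600 nt strands. Probe 45327-20, centred 78 bases upstream of the start of Hprt, the purine salvage enzyme, lay at chrX:52987970-52988029. It had log2 ratios of 2.18, 2.23, 1.46 and 1.49 in the same order. The only one of the 10 that the study does not list, 66836-670, had the highest value of all probes on the first array of 100-600 nt strands, 2.31, beside 2.04 on the second and 2.70 and 2.65 in 300-800 nt strands. It lies in a fragment with a probe that the study lists at an origin.

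Both fractions were high at F8a, which encodes a partner of huntingtin. Probe 66347-880 had log2 ratios of 2.54 and 2.60 in 300-800 nt strands and 1.79 and 1.63 in 100-600 nt strands. Its neighbour 66347-570 had 1.89 and 1.96, then 1.67 and 1.34. Rap2c encodes a small GTPase of the Ras family, and its probe 42523-10 had the largest 300-800 nt values of all members, 3.27 and 3.43, with 1.16 and 1.21 in 100-600 nt strands. The difference between the fractions at this probe was thus wider than at Notch2. Near the start of Pias3, a SUMO ligase that restrains STAT3, probe 106324-410 had 2.15, 2.12, 1.13 and 1.29. At Za20d1, a gene name of the study's list, the probes 105456-190 and 105455-120 lay in adjoining fragments. The former had 2.37, 2.44, 1.67 and 1.47, and the latter 2.06, 2.13, 1.41 and 1.68. Of the 10 highest members 8 held 4 or more CpG, as the first 6 sequences printed above do.

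At the edge of the rule the values ran on without a gap. The 3 members just inside, 105893-80, 106352-740 and 42524-1970, had a weakest percentile of 90.08, 90.09 and 90.12. The 3 probes just outside, 106169-1360, 66025-1490 and 45790-30, had 89.99, 89.94 and 89.94. Probe 106169-1360, listed in an exon of Polr3gl, a subunit of RNA polymerase III, had 2.87 and 2.88 in 300-800 nt strands and missed the rule by its 0.66 on the second array of 100-600 nt strands.

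The members were rich in C+G and in CpG, which the rule did not use. Their mean C+G content was 53.9% (SD 8.59 over 167 probes) against 42.1% (SD 6.40) in the other 19638 probes. They held 2.50 CpG per probe against 0.582. The C+G difference of 11.9 percentage points was 7.80 after loess and 2.97 with residuals from C+G content, and the CpG difference of 1.91 was 1.14 without the first array of 100-600 nt strands and 0.985 with residuals. No CpG was found in 34 members (20.4%), against 58.1% of the other probes, and 4 or more CpG in 52 members (31.1%), against 0.896% of the others. Probes are not replicates and neighbours share sequence, so no test was made of these differences.

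**Figure D2:**
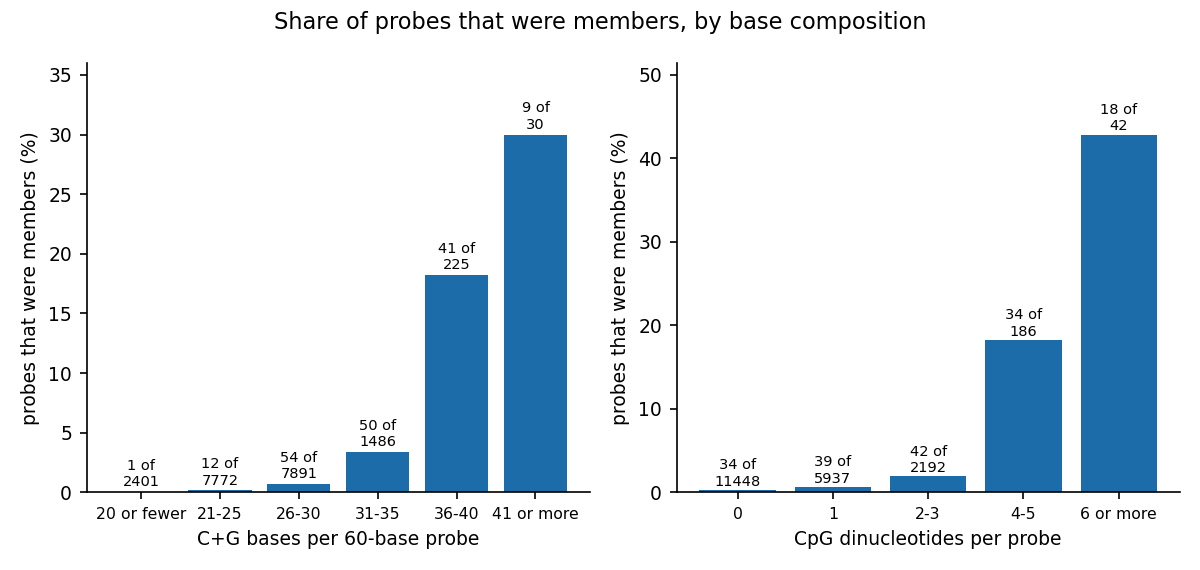
Share of tiled probes that were members (y axis, percent) by the number of C and G bases in the probe (left) and by the number of CpG dinucleotides (right), with members of all probes in each class above the bars. The share rose from 0.0416% with 20 or fewer C+G bases to 30% with 41 or more, and from 0.297% without CpG to 42.9% with 6 or more.

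The share of probes that were members rose with each class of composition. With 26 to 30 C+G bases it was 54 of 7891 probes (0.684%), with 31 to 35 it was 50 of 1486 (3.36%), with 36 to 40 it was 41 of 225 (18.2%), and above 40 it was 9 of 30. By CpG it was 34 of 11448 probes without one, 42 of 2192 with 2 or 3 (1.92%), 34 of 186 with 4 or 5 (18.3%), and 18 of 42 with 6 or more (42.9%). In the classes with 21 or more C+G bases the members held more CpG on average than the other probes, while the only member with 20 or fewer held none, against a mean of 0.26 in the others. With 31 to 35 C+G bases the mean was 2.28 CpG in members and 1.23 in others, and with 36 to 40 bases it was 4.29 and 2.65. The rise with C+G was also seen on single arrays and is not particular to the members. With 36 to 40 C+G bases, 49.3% and 50.2% of probes were in the top 10% with 300-800 nt strands. With 100-600 nt strands 38.7% and 40.4% of them were.

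Probes that were high in 1 fraction alone had another composition. The 1365 probes in the top 10% of both arrays of 300-800 nt strands and of neither array of 100-600 nt strands had a mean C+G content of 45.8% and 0.714 CpG per probe. They were uneven between the bases, with 15.8 C and 11.7 G per probe. The 476 probes in the top 10% of both arrays of 100-600 nt strands and of neither of the others had 46.4% C+G, 1.22 CpG, 13.8 C and 14.1 G. The members had 16.5 C and 15.9 G. The members thus held more CpG and more C+G on average than either group, and nearly as much G as C where the first group held more C than G.

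Short motifs were counted in the probe sequences on the strand deposited. CGCG, which is its own reverse complement and contains the CpG already counted, occurred in 26 members (15.6%) and in 0.707% of all tiled probes. GGGCGG or its complement CCGCCC, the core of a GC box, occurred in 4 members (2.40%) and in 0.308% of all probes. Runs of GGGG or CCCC occurred in 28.1% of members, 29.2% of the probes high in 300-800 nt strands alone, 14.9% of those high in 100-600 nt strands alone, and 19.2% of all probes. Runs of AAAAA or TTTTT occurred in 10 members (5.99%) and in 15.3% of all probes. A motif is a run of letters here and no sign of a bound factor.

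The members were high in the nascent channel. On the arrays of 100-600 nt strands their median was slightly below the middle in the genomic channel. Among all probes of the same array, their median percentile of nascent signal was 91.9 and 92.4 with 300-800 nt strands and 85.3 and 82.5 with 100-600 nt strands. Their median percentile of genomic signal was 71.1 and 71.2 with 300-800 nt strands, and 44.0 and 46.7 with 100-600 nt strands. On the latter arrays 78 and 79 members (46.7% and 47.3%) were above the genomic median. The 476 probes high in 100-600 nt strands alone were much alike on these arrays. Their median percentiles were 82.6 and 79.2 for nascent signal and 48.1 and 46.1 for genomic signal. In arbitrary fluorescence units the median member had nascent signals of 3211 and 3306 over genomic signals of 1182 and 1175 with 300-800 nt strands. With 100-600 nt strands it had 465 over 96.4 on the first array and 1404 over 258 on the second. Signals of different arrays are not on 1 scale, so only percentiles are compared between them. Averaged over the fractions, the members' median genomic percentile was 58.9, and it was 25.4 for the 156 probes that passed the rule after loess normalisation, so whether the genomic signal was above or below the middle depended on the normalisation.

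**Figure D3:**
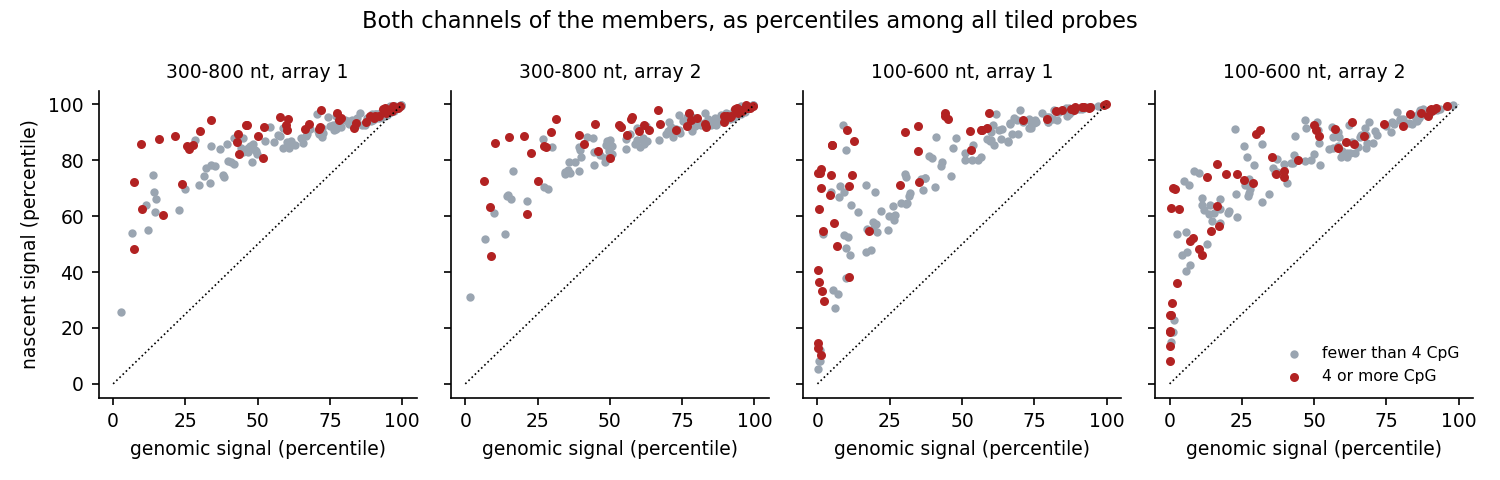
Nascent signal (y axis) against genomic signal (x axis) of the 167 members, each as a percentile among all tiled probes of the same array, 1 panel per array. Red points are members with 4 or more CpG, and the dotted line marks equal percentiles. On the arrays of 100-600 nt strands more red points lie at the left, at low genomic signal. The members' median genomic percentiles there were 29.6 and 30.6 with 4 or more CpG and 53.5 and 53.1 with 2 or 3. They were 31.9 and 31.8 with 1 CpG and 62.3 and 62.6 without CpG, so they did not fall steadily with CpG number.

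A nascent signal above the array's median was seen on all 4 arrays in 139 members and below it on at least 1 array in 28. The nascent signal was in the highest 10% on all 4 arrays in 38 members. A genomic signal above the median on all 4 arrays was seen in 54 members (32.3%, against 30.3% of all probes), and below it on all 4 in 37 members (22.2%, against 29.6%). Low genomic signal was more frequent with 100-600 nt strands. It was in the lowest 10% in 35 and 26 members on these arrays (21.0% and 15.6%), and in 5 and 6 members on the arrays of 300-800 nt strands.

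Probes rich in C+G gave high genomic signals in general, and the members among them did not on the arrays of 100-600 nt strands. The rule divided by the genomic signal and so favoured probes where it was low. The values below are therefore a description of the selected probes. Over all 19805 probes the mean genomic percentile correlated with C+G content at 0.43, over the 167 members at 0.087. Members with 36 or more C+G bases had a median genomic percentile of 34.8 and 38.2 on the arrays of 100-600 nt strands, where the other probes of that class had 69.4 and 68.2. On the arrays of 300-800 nt strands they had 78.0 and 77.7, against 89.2 and 89.8. With 26 to 30 C+G bases the members lay above the other probes on the arrays of 300-800 nt strands, at 66.8 and 67.1 against 62.6 and 62.5, and below them with 100-600 nt strands, at 51.1 and 51.3 against 56.7 and 57.4.

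On the arrays of 100-600 nt strands, genomic signals were low in the members of highest weakest rank, a rank taken from ratios to this same signal. Of these 10 members, 9 were in the lowest 10% of genomic signal on the first array of 100-600 nt strands, and 5 on both. Probe 66347-880 at F8a had a nascent signal of 258 over a genomic signal of 26.6 on the first of these arrays and 469 over 55.5 on the second. Its genomic signal was at percentile 0.162 and 0.0909, and its nascent signal at 40.9 and 24.8, below the middle of both arrays. Probe 106197-30 likewise had 333 over 34.9 and 355 over 47.7. The Notch2 probe 108091-870 had 403 over 39.4 and 1047 over 106, with its nascent signal at percentiles 77.0 and 69.9. At Rap2c, probe 42523-10 differed from these, with genomic percentiles of 30.4 and 51.5 and nascent percentiles of 90.1 and 88.9. On the arrays of 300-800 nt strands, where it had the highest ratios, its genomic percentiles were 71.98 and 66.8.

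Among all members, 21 (12.6%) were in the lowest 10% of genomic signal on both arrays of 100-600 nt strands, against 4.66% of the other probes. Of these 21 members 11 held 4 or more CpG, 14 had a nascent signal below the median on at least 1 of these arrays, and 3 were in the lowest 10% of genomic signal on both arrays of 300-800 nt strands too. The 146 members without these 21 had 53.6% C+G and 2.31 CpG per probe. The part of the low genomic signal in the ratios was not tested.

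The 3 members with the lowest mean genomic percentile were 63793-510, 42524-2160 and 45327-20. Probe 42524-2160, listed at the promoter of Rap2c, had genomic signals of 22.5 and 42.9 with 100-600 nt strands and nascent signals of 176 and 298. Probe 63793-510 had genomic percentiles of 2.89 and 1.71 with 300-800 nt strands and 0.77 and 1.00 with 100-600 nt strands and held no CpG. At the other end, 46461-60, 105995-10 and 106320-10 had mean genomic percentiles of 98.5, 98.3 and 94.9. Probe 46461-60 had nascent signals of 66703 and 73509 over genomic signals of 13949 and 16458 in 300-800 nt strands. It held 60% C+G without a CpG, so bright members with no CpG were found as well.

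The members lay in 146 of the 10582 tiled fragments, 129 of which held 1 member, 14 held 2, 2 held 3 and 1 held 4. Of the members 31 (18.6%) were the only probe of their fragment and had no neighbour to compare, against 35.1% of all probes. Next to another member stood 25 members (14.97%), and 35 had another member within 1000 bases of the same fragment. Among the probes in the top 10% of a single array, 19.1% and 20.0% stood next to another such probe with 300-800 nt strands, and 22.9% and 21.9% with 100-600 nt strands. Each of these sets held 1981 probes, many more than the members, and a larger set has more neighbours by chance alone. The shares therefore cannot be compared with that of the members. Since the tiled part of a locus can run over several fragments, adjoining fragment numbers were counted too, and 56 members had another member in the same or an adjoining fragment. When each ratio was taken as the residual from its C+G content, 95 probes passed the rule and none stood next to another, and after normexp or loess the share was 5.59% and 7.69%.

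**Figure D4:**
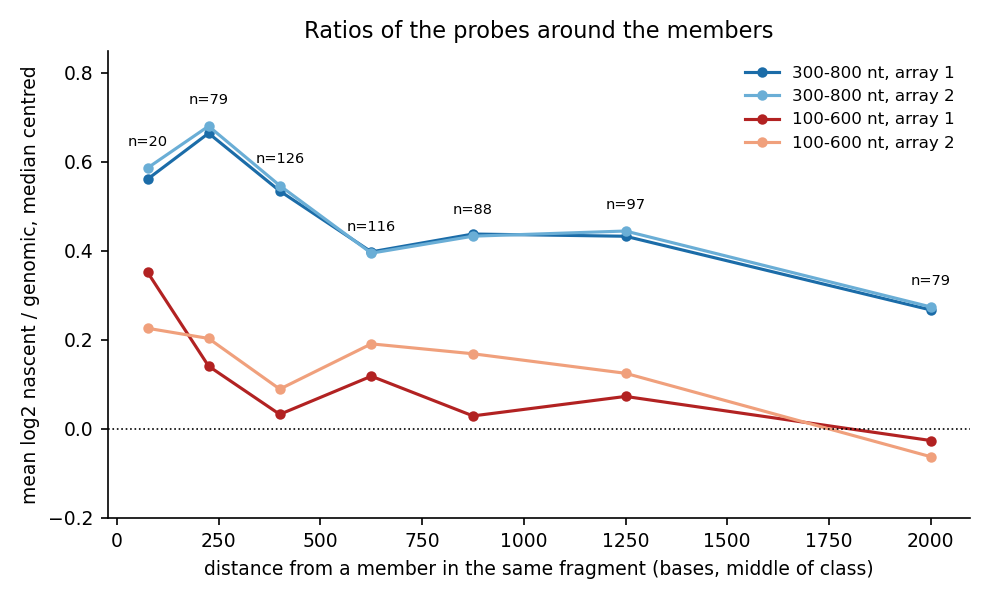
Mean log2 nascent over genomic ratio (y axis, centred on each array's median probe) of probes that are not members, by their distance from a member in the same fragment (x axis, bases, at the middle of each class), for the 4 arrays. The number of probes in each class stands above the lines, the dotted line at 0 is the median probe of each array, and no error is drawn. The 300-800 nt means were 0.56 and 0.59 within 150 bases, where there are 20 probes, 0.66 and 0.68 at 150 to 300 bases, and 0.27 at 1500 to 2500 bases.

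Probes around the members that were not members themselves had raised ratios in 300-800 nt strands and smaller ones in 100-600 nt strands. Within 150 bases of a member, 20 such probes had mean log2 ratios of 0.56 and 0.59 with 300-800 nt strands and 0.35 and 0.23 with 100-600 nt strands. At 150 to 300 bases, 79 such probes had mean log2 ratios of 0.66 and 0.68 with 300-800 nt strands and 0.14 and 0.20 with 100-600 nt strands. At 500 to 750 bases the means of 116 probes were 0.40 and 0.39, and 0.12 and 0.19. At 1500 to 2500 bases the means of 79 probes were 0.27 and 0.27, and -0.03 and -0.06. The mean over all tiled probes was near 0 with 300-800 nt strands and -0.07 and -0.09 with 100-600 nt strands. The C+G content of these neighbours was also highest at 150 to 300 bases, at 48.6% with 1.30 CpG within 150 bases, 49.9% with 1.42 CpG at 150 to 300 bases and 46.5% with 0.696 CpG at 1500 to 2500 bases, and its part in the ratios was not tested. Neighbours had raised values elsewhere too. Around the probes high in 100-600 nt strands alone, 283 neighbours at 150 to 300 bases had means of 0.39 and 0.40 with 300-800 nt strands, and 204 at 1500 to 2500 bases had 0.35 and 0.35.

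The fragment that held most members, 43419, covers the start of Hs6st2, which adds sulfate groups to heparan sulfate chains. Its 4 members lay 392, 1262, 1428 and 1742 bases downstream of the gene's start. Probe 43419-860 had log2 ratios of 1.22 and 1.08 in 300-800 nt strands and 1.71 and 0.78 in 100-600 nt strands. Probe 43419-1897, listed at the promoter, had 1.68, 1.57, 1.19 and 1.61. Between them, at 792 bases, probe 43419-1260 had 1.74 and 1.68 in 300-800 nt strands and -1.29 and -0.93 in 100-600 nt strands, although its C+G content was 70.0% and it held 4 CpG. On the arrays of 100-600 nt strands its nascent signal was at percentiles 78.2 and 95.6 and its genomic signal at 97.2 and 98.3. Probe 43419-860 had nascent percentiles of 69.9 and 48.3 there and genomic percentiles of 1.29 and 10.0. High ratios thus ran over most of this fragment in 300-800 nt strands. In 100-600 nt strands the ratios were interrupted at 43419-1260 and at the next probe, 43419-1355, 886 bases downstream, with -0.97 and -0.13. The latter had nascent percentiles of 75.6 and 86.2 there and genomic percentiles of 95.3 and 91.1. At both probes the nascent signal was above the middle of these arrays.

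**Figure D5:**
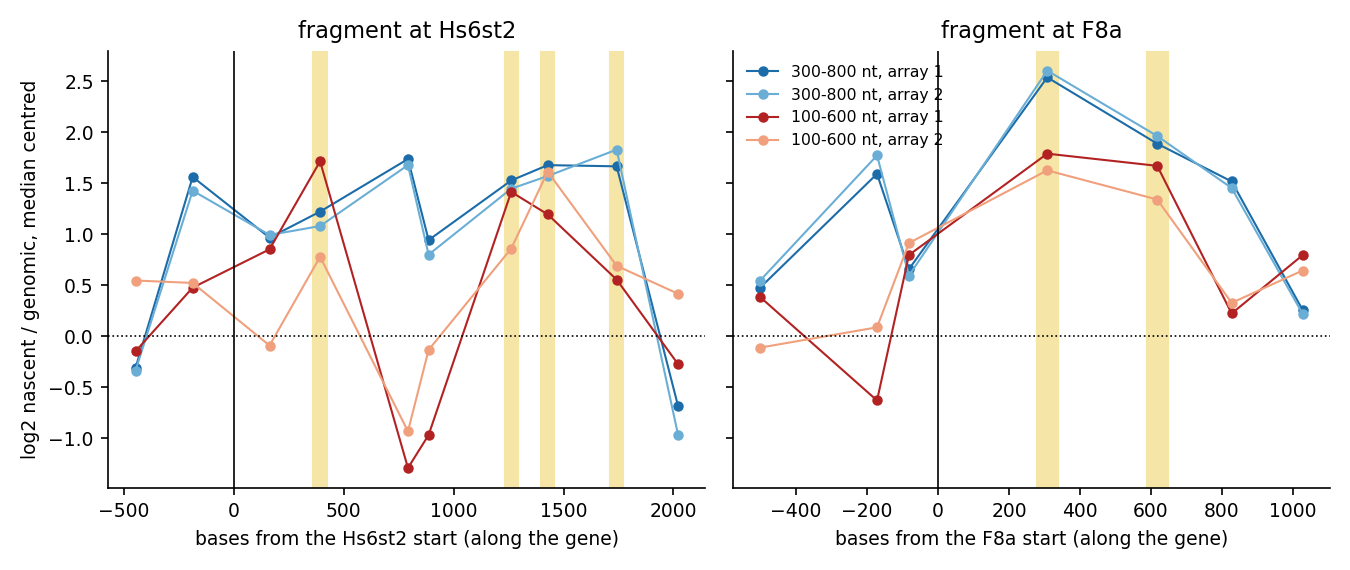
Log2 nascent over genomic ratio (y axis, centred on each array's median probe) of every probe in the fragments at Hs6st2 and F8a, by the distance of the probe's middle from the gene's start (x axis, bases along the gene), for the 4 arrays. Yellow bands mark members. At F8a all 4 arrays were highest at 308 bases, and at Hs6st2 the 100-600 nt arrays fell below 0 near 792 bases.

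At F8a, the 2 members lay 308 and 618 bases downstream of the start, where both fractions were highest. In 300-800 nt strands some nearby ratios were high too. They were 1.52 and 1.45 in 66347-360, 828 bases downstream, and 1.59 and 1.77 in 66347-1360, 172 bases upstream. The same probes had 0.22 and 0.33, and -0.63 and 0.09, in 100-600 nt strands. The high ratios were not a continuous stretch. Nearest the start, 66347-1270, 82 bases upstream, had 0.66 and 0.60 in 300-800 nt strands and 0.80 and 0.91 in 100-600 nt strands. Beyond 66347-360, 66347-160 at 1028 bases had 0.26 and 0.22 in 300-800 nt strands and 0.79 and 0.64 in 100-600 nt strands. The members of fragment 42524, next to the Rap2c probe 42523-10, were 42524-180, 42524-1970 and 42524-2160. The last of these, listed at the promoter, had 1.39, 1.17, 1.47 and 1.34. In fragment 63869 the members were 63869-80, 63869-830 and 63869-1420, and the last had 1.52, 1.55, 1.31 and 1.57. Between the first and the second lay 63869-430 with -0.50 and -0.52 in 300-800 nt strands, so the members of this fragment were not a continuous stretch. In fragment 107585 at Prkab2, which encodes a regulatory subunit of AMP-activated kinase, both probes were members. Probe 107585-200, 68 bases into the gene, had 1.80, 1.83, 1.94 and 1.98, and 107585-480, 212 bases upstream, had 1.38, 1.37, 1.10 and 0.72.

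The members were frequent near gene starts. Exact matches of the 60-base sequences to RefSeq promoter windows (GRCm38.p6) of 300 bases were found for 125 probes, of which 9 were members, that is 5.39% of the members against 0.631% of all probes. In all 21 fragments with several matched probes the offsets placed every probe alike, so the matches placed 544 probes of 103 fragments by their distance from a gene start, 34 of them members. Within 250 bases of a start 15 of 165 placed probes were members (9.09%), from 250 to 500 bases 9 of 113 (7.96%), from 500 to 1000 bases 5 of 127 (3.94%), from 1000 to 2000 bases 4 of 86 (4.65%), and beyond that 1 of 53 (1.89%). Only fragments with a matched promoter enter this count.

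The 24 members within 500 bases belonged to 20 of the 104 genes that could be placed. They included Hprt, Notch2, Pias3 and Prkab2 as above. Others lay near the starts of Flna (filamin A, which links actin filaments), Rpl10 (a protein of the large ribosomal subunit), Vma21 (an assembly factor of the vacuolar proton pump), Txnip (an inhibitor of thioredoxin) and Bcap31 (a protein of the endoplasmic reticulum). The Flna probe 67466-100 lay at chrX:74246486-74246545, the Rpl10 probe 67497-210 at chrX:74270626-74270685 and the Txnip probe 106133-1420 at chr3:96557746-96557805. These genes were named after their values were seen. Among the placed probes, no member was found within 500 bases of the start of the other 84 genes. Of these genes, Pde4dip and Plac1 had the most probes there, 7 each. Rap2c, Pdzd4 and Chd1l are among the 84, although members listed at their promoters lay in fragments that were not placed. The count is therefore no evidence that these promoters hold no member.

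Of the 150 probes that the study lists at its origins, 37 were members, at 26 listed locations of which 11 had 2. Among the listed probes with a CpG island 36 of 70 were members, and among those without one 1 of 80. This exception was 108934-110, listed as intergenic, with 1.82 and 1.77 in 300-800 nt strands and 0.72 and 0.94 in 100-600 nt strands and 38.3% C+G. Members at listed promoters numbered 35 of 77 such probes. Among them were probes at Gpc3 and Gpc4, which encode cell surface glypicans, and at Atp2b3, a calcium pump. The probes of highest C+G content belonged here: 42523-10 at Rap2c, 44761-410 at Gpc3 and 66650-90 at Atp2b3 each had 70.0%. At Gpc3 the values were 2.63, 2.59, 0.73 and 1.23, and at Atp2b3 they were 1.93, 1.90, 1.34 and 0.80.

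The other 130 members are not on the list. Of these 23 lay in a fragment with a listed probe and 9 in an adjoining fragment. The remaining 98 lay elsewhere, with 50.9% C+G and 1.57 CpG per probe on average, against 60.2% and 4.46 in the 37 listed ones. Their median log2 ratios were 1.35 and 1.36 in 300-800 nt strands and 0.61 and 0.94 in 100-600 nt strands, lower than the 1.96, 1.96, 1.18 and 1.29 of the listed ones. The study chose its list by high ratios on these arrays of 300-800 nt strands, and the members were chosen on all 4 arrays. Nothing is therefore read from this difference. No CpG was held by 30 of the 98, and 4 or more by 13. The member of lowest C+G content, 44543-200, was among them, with 1.38, 1.47, 0.61 and 0.93.

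Members were found in all 3 tiled regions. They were 67 of 6842 probes on chromosome 3 (0.979%), and on the X chromosome 69 of 7081 in the region of higher fragment numbers (0.974%) and 31 of 5882 in the other (0.527%). The mean C+G content of all probes was 43.2%, 42.3% and 40.8% in the same order. That of the members was alike in the 3 regions, at 53.7%, 54.3% and 53.5%.

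The fractions were compared over all probes with limma, whose adjusted p-values follow Benjamini and Hochberg. The arrays of 300-800 nt strands entered as 1 sample and those of 100-600 nt strands as 2, so the single sample is assumed to vary like the other fraction. Of 19805 probes 1099 (5.55%) passed an adjusted p of 0.05, 990 (5%) higher in 300-800 nt strands and 109 (0.55%) higher in 100-600 nt strands. Of the 167 members 8 were called, all of them higher in 300-800 nt strands, and 77 members and 31.8% of all probes were called with the arrays of 300-800 nt strands as 2 samples. The rule used the same ratios with higher thresholds in 300-800 nt strands, so nothing is read from this count against the background. The difference between fractions was positive in 160 members, with a median of 0.57, and in 125, 133 and 118 members, with medians of 0.30, 0.29 and 0.26, once each array was divided by its SD, after normexp and after loess. At Rap2c, 42523-10 differed by 2.17, at Gpc3, 44761-410 by 1.63 and at Notch2, 108091-870 by 0.57, given without a test since these ratios chose the members. No member was called once each array was divided by its SD or normalised by loess, where 1.77% and 2.04% of all probes were called. Nothing is read from these counts either.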

How the data were processed

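For each array the authors deposited spot intensities of both dyes as extracted by Agilent Feature Extraction. The intensities of the 100-600 nt arrays (version 7.5.1, nascent strands in Cy5) were background-subtracted and detrended, and those of the 300-800 nt arrays (version 9.5.3.1, nascent strands in Cy3) also dye-normalised. Intensities were positive at all tiled spots, and their log2 ratio was averaged over repeated spots and centred on the array's median without removing marked spots. The authors' log ratios were not used. Members and lists were chosen with earlier results of these data known. Named probes were the 10 members of highest weakest percentile, those of the 5 fragments with most members, the 3 at each end of C+G content and of genomic signal, and the 3 on each side of the edge. Other named probes were chosen after their values were seen.

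The difference of replicates 1 and 2 correlated at -0.0021 between fractions. In the fraction of longer strands this difference was no larger than predicted from repeated spots. The correlation therefore cannot decide whether replicate numbers paired the arrays. The fit in limma 3.58.1 (R 4.3.3) was tested on simulated data. Tables were made in Python 3.11 with pandas 2.3.3. Alternatives were normexp with an offset of 50, loess, marked spots left out, the top 5% or 15%, complete probes only, residuals from C+G content, other sample and block settings and leaving out each array. Genome positions beyond the RefSeq matches were not analysed here, and 1 item is not reported here. Only 4 arrays limit the precision.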

Additional observations from a re-analysis of the deposited data

Results flagged for a closer look

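Between the nascent strand fractions 8 members differed by limma at an adjusted p under 0.05, all higher in 300-800 nt strands, where 5.55% of all probes were called. The rule used the same ratios, so nothing is read from the count against that background. With the arrays of 300-800 nt strands as 2 samples the count was 77 without and 73 with the replicate block. In these fits 31.8% and 36.7% of all probes were called. It was 0 after scaling each array by its SD, where 1.77% of all probes were called. Fraction, dye, print design and software version cannot be told apart.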

How the results depend on the processing

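Ranking complete probes only gave the same 167 members, since all tiled probes had a value on every array. The top 5% and 15% gave 58 and 335 members and residuals from C+G content 95, of which 72 were among the 167. Normexp shared 121 and loess 89 of the 167. The C+G difference between members and other probes, 11.9 percentage points, was 7.80 with loess, 14.6 and 8.95 with the top 5% and 15%, and 2.97 with residuals, which remove most of it by construction. The CpG difference, 1.91 per probe, was 1.43 with normexp, 1.52 with loess, 2.06 without marked spots, 2.89 and 1.34 with the top 5% and 15%, and 0.985 with residuals. The share of members next to a member was 5.59% with normexp, 7.69% with loess, 10.3% with the top 5% and 0 with residuals, and 21.0% of members had another within 1000 bases. The median nascent percentile was 65.5 and the genomic percentile 25.4 with loess, against 86.6 and 58.9 (mean of the fractions). The cause was not tested. The members called between fractions were 77 with the 300-800 nt arrays as 2 samples (31.8% of all probes called), 73 with these and the replicate block (36.7%), 3 with normexp (1.8%), and 0 with loess (2.04%) or scaling by the SD (1.77%). Of all calls 90.1% were higher in 300-800 nt strands, 54.9% with 2 samples, 55.2% with the block, 74.8% with loess and 99.7% with normexp. Leaving out each array gave 174 to 360 members, C+G differences of 8.17 to 11.7, CpG differences of 1.14 to 1.87, neighbour shares of 12.2% to 15.5%, nascent percentiles of 82.4 to 86.6, genomic percentiles of 48.3 to 58.1, and 8 to 157 members called. Without the first or the second array of 100-600 nt strands there were 360 and 264 members, and 138 and 157 called (76.3% and 78.8% of all probes), where the spread came from the 300-800 nt arrays of 1 slide. The C+G and CpG differences kept their sign in all alternatives run. The arrays give signal over background and no count of molecules.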
